A study of Danio rerio with 12 samples.

Results

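AP-1 is a family of transcription factors built from pairs of Fos, Jun and Atf proteins, and its genes are among the immediate early genes, which cells transcribe within minutes of a stimulus without making new protein first. The 10 genes described here are fosab, fosb and fosl2 of the Fos family, jun, junba, junbb and jund of the Jun family, atf3, the zinc-finger factor gene egr1, and dusp1, which encodes a phosphatase that switches MAP kinases off. They were chosen by symbol, with earlier results of these data known, and all 10 were found among the 25011 genes of the expression table. As background, MAP kinases phosphorylate factors bound at the promoters of these genes, the resulting Fos and Jun proteins pair through leucine zippers, and Dusp1 closes the loop by removing the phosphates. The same genes are known to respond to growth factors, cytokines, mechanical force and tissue dissociation.

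The RNA came from cells sorted as haemogenic endothelium from zebrafish embryos at 36 hours post-fertilisation. Haemogenic endothelial cells are the aortic endothelial cells that give rise to blood stem and progenitor cells. Skeletal muscle markers and those of other cell types, given below, were also detected. All embryos carried a kdrl:mCherry reporter, driven by the promoter of an endothelial receptor gene, and a runx1:en-GFP reporter, driven by a runx1 enhancer, and about 5000 cells positive for both colours were sorted from the trunk for each library. The morphant group (genotype label dnmt3ba knockdown, n = 3) had been injected with a morpholino against dnmt3ba, a de novo DNA methyltransferase gene, and the control group (genotype label WT, n = 3) is called control in the protocol, which does not make clear whether it received a control morpholino. A morpholino acts transiently and in the whole embryo, so the sorted cells were not the only cells exposed to it.

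Total estimated counts lay between 24397076 and 25132656 per library, and the counts of the 10 genes between 227 and 137554 per gene and library. Values per library are given below as CPM, the share of a library's counts after TMM scaling, which compares 1 gene across libraries, and as TPM, which is also divided by transcript length and so compares genes. The targeted gene itself, dnmt3ba, read 577 ± 186 CPM in controls and 559 ± 138 CPM in morphants (SD, n = 3), and a morpholino need not lower its target's read count, so these values do not check the knockdown. The gene kdrl, whose promoter drives the mCherry reporter, was measured itself, not the reporter. It read 97.4, 184 and 74.5 CPM in controls 1 to 3 and 516, 88.2 and 519 CPM in morphants 1 to 3. Morphant 2 thus lay within the controls. runx1, whose enhancer drives the other reporter, read 35.1, 39.4 and 22.4 CPM in controls and 11.0, 16.3 and 13.5 CPM in morphants, lower in every morphant (log2 fold change -1.25, edgeR adjusted p = 0.137). Both genes were detected in every library. The first principal component, with 37.8% of the variance, put the 3 controls at -14.3, -118 and -12 and the 3 morphants at 72.7, 12.7 and 59.2, so control 2 stood far from the other controls, and morphant 2 lay nearer to controls 1 and 3 than to the other morphants.

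Of the 10 genes, 6 were higher in every morphant library than in every control library. Those 6 were fosab, jun, junba, junbb, atf3 and dusp1, at 1.46 to 2.14 times the control level, whereas fosb, fosl2, jund and egr1 overlapped between the groups. By edgeR's quasi-likelihood test with Benjamini-Hochberg adjustment over all 18846 genes tested, 0 of the 10 were called higher and 0 lower, against 0.0531% and 0.0106% of all genes. At an unadjusted p under 0.05, 5 were higher and 0 lower, against 7.58% and 9.46% of all genes. Groups that did not overlap were found, in the higher direction, for 6 of the 10 and 12.4% of all genes, and in the lower direction for 0 and 11.9%. DESeq2, which called 3.5% of genes higher, called 5 of the 10 higher at an adjusted p under 0.05, namely fosab (adjusted p = 0.0105), jun (0.00725), junba (0.00256), atf3 (0.00122) and dusp1 (0.0151), and limma-voom called 0. Over all alternatives the adjusted p ran up to 0.524 for fosab, 0.508 for jun, junba and dusp1, and 0.505 for atf3. The median log2 fold change of the 10 was 0.68, and that of all genes was -0.04.

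**Figure D1:**
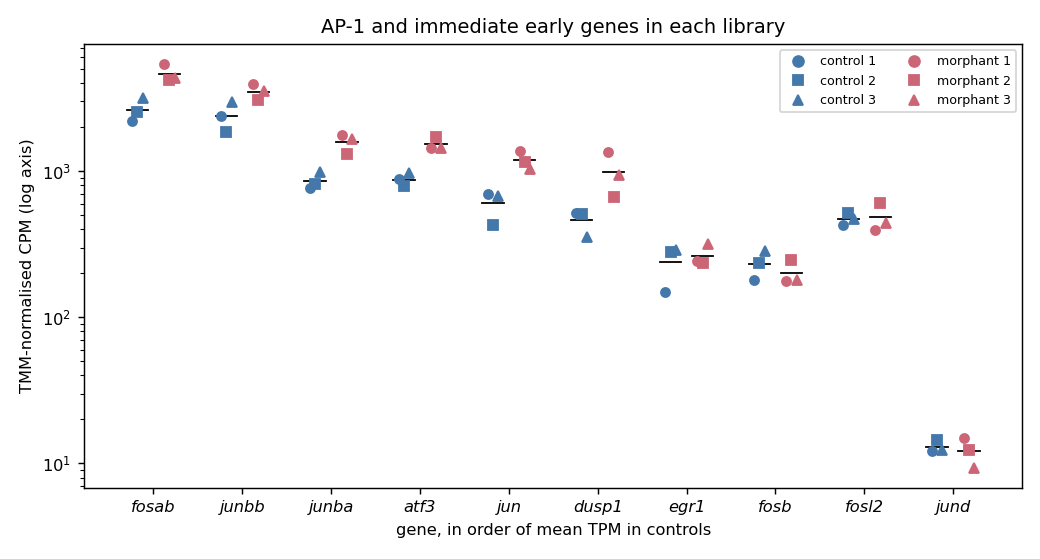
Level of each of the 10 genes in each library, in TMM-normalised CPM on a log axis, with genes in order of their mean TPM in controls. Points are libraries, with a shape for each replicate number, and black bars are group means; for fosab, junbb, junba, atf3, jun and dusp1 all 3 morphant points lie above all 3 control points.

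Taken per length, the order of levels in controls ran from fosab to jund over a range of about 2 orders of magnitude. fosab had 2390 ± 584 TPM in controls (SD, n = 3), the 51st highest mean of the 25011 genes, and junbb had 2160 ± 278 TPM, the 61st; these did not differ beyond their spread. junba followed at 911 ± 191 TPM. atf3 and jun, at 475 ± 58.2 and 471 ± 36.5 TPM, could not be separated, nor could dusp1 and egr1, at 298 ± 101 and 244 ± 109 TPM, nor fosb and fosl2, at 125 ± 49.2 and 118 ± 34.7 TPM. jund was far below the rest, at 22.2 ± 6.95 TPM.

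In morphants the genes at the top of that order also ranked higher among all genes. fosab had 4130 ± 579 TPM, the 17th highest mean, junbb 3170 ± 344 TPM, the 30th, and junba 1640 ± 212 TPM, the 77th, compared with the 171st place in controls. jun stood at 944 ± 155 TPM and atf3 at 829 ± 123 TPM, and dusp1 at 616 ± 212 TPM. The other genes were near their control means, with egr1 at 259 ± 33.0, fosl2 at 123 ± 30.6, fosb at 121 ± 24.9 and jund at 20.2 ± 5.06 TPM. Together the 10 genes took up 0.777, 0.887 and 0.946% of all estimated counts in the 3 controls and 1.63, 1.35 and 1.36% in the 3 morphants, in the order of their numbers. That share was higher in all morphants. The 10 genes were chosen with earlier results of these data known, so the share is given as a description without a test. In these bulk samples, fewer cells of a type and less RNA per cell cannot be told apart.

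The Fos proteins bind DNA when paired with a partner such as a Jun protein. fosab, the zebrafish c-fos gene, made up most of the family's transcripts. fosab (gene ID 394198) read 2210, 2560 and 3150 CPM in controls 1 to 3 and 5400, 4190 and 4370 CPM in morphants 1 to 3. The lowest morphant lay above the highest control, and morphant 1 was the highest library. The log2 fold change was 0.82 with an SE of 0.22 (edgeR, unadjusted p = 0.00718, adjusted p = 0.174), higher in 3 of 3 morphants.

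fosb encodes another Fos protein induced by stimuli. fosb (492346) read 179, 234 and 283 CPM in controls and 177, 247 and 179 CPM in morphants, and its groups overlapped throughout. Its fold change was 0.866, with a 95% interval from 0.596 to 1.26 (edgeR adjusted p = 0.682). fosl2 (558921), a Fos-related factor of slower kinetics in mammalian cells, read 425, 518 and 468 CPM in controls and 398, 608 and 444 CPM in morphants. Morphant 2 held the highest value and morphant 1 the lowest, and the fold change was 1.03 with a 95% interval from 0.729 to 1.45 (adjusted p = 0.943). The unadjusted p of fosl2 was 0.0426 after a correction for gene length, with a log2 fold change of 0.42 in place of 0.04.

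Jun proteins pair with each other or with Fos. jun (335916), the zebrafish c-jun gene, read 698, 427 and 680 CPM in the controls and 1380, 1150 and 1040 CPM in morphants. Control 2 was the lowest library, and the lowest morphant was well above the highest control. The log2 fold change was 0.98 with an SE of 0.25 (edgeR, unadjusted p = 0.0045, adjusted p = 0.159). Without control 2 and morphant 2 it was 0.81.

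junba and junbb are the duplicated zebrafish copies of JunB, which in mammals can restrain c-Jun as well as activate genes. junba (407086) read 766, 822 and 981 CPM in controls and 1780, 1310 and 1660 CPM in morphants. The groups were separated by a gap wider than the range of the controls, and the log2 fold change was 0.89 with an SE of 0.21 (edgeR, unadjusted p = 0.00302, adjusted p = 0.146). junbb (336038) read 2370, 1840 and 2980 CPM in controls and 3930, 3070 and 3510 CPM in morphants. Here control 3 came close to morphant 2, and the log2 fold change was 0.55 with an SE of 0.24 (unadjusted p = 0.0533, adjusted p = 0.3).

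jund (564873) encodes the Jun protein that in mammals is present without stimulation. It read 12.2, 14.5 and 12.4 CPM in controls and 15, 12.4 and 9.36 CPM in morphants, so morphants 1 and 3 were the highest and the lowest library. Its fold change was 0.936 with a 95% interval from 0.618 to 1.42 (edgeR adjusted p = 0.879).

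**Figure D2:**
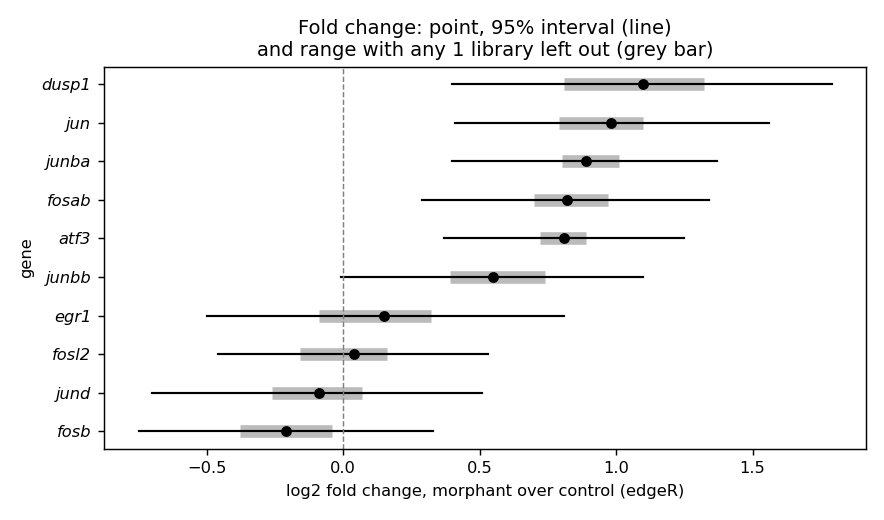
Log2 fold change of each gene, morphant over control, from the edgeR fit over all genes; points are estimates, black lines their 95% intervals and grey bars the range when any 1 of the 6 libraries was left out. The 6 upper genes lie between 0.55 and 1.1, and the intervals of junbb, egr1, fosl2, jund and fosb include 0.

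atf3 encodes a bZIP factor induced by many stresses, which pairs with Jun proteins and often represses. atf3 (393939) read 878, 786 and 966 CPM in controls and 1450, 1720 and 1430 CPM in morphants. Both groups were tight, and every morphant exceeded every control. The log2 fold change was 0.81 with an SE of 0.19 (edgeR, unadjusted p = 0.00284, adjusted p = 0.143), the smallest p of the 10 genes.

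dusp1 (406340), the feedback phosphatase, read 518, 509 and 354 CPM in controls and 1350, 662 and 941 CPM in morphants. It had the largest fold change of the 10, 2.14 with a 95% interval from 1.32 to 3.47, and, relative to its mean, also the widest scatter among morphants, where morphant 1 read about 2 times morphant 2. The log2 fold change was 1.1 with an SE of 0.3 (edgeR, unadjusted p = 0.00681, adjusted p = 0.171), and over the libraries left out in turn it ran from 0.81 to 1.32. egr1 (30498), which is induced through the same MAP kinase and serum response factor route as fos in mammals, read 148, 278 and 287 CPM in controls and 241, 237 and 316 CPM in morphants. Control 1 was the lowest library and the other 5 overlapped. The fold change of egr1 was 1.11 with a 95% interval from 0.708 to 1.75 (adjusted p = 0.811).

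Across the 6 genes whose groups did not overlap, morphant 1 was the highest library for 5 and morphant 2 for 1, atf3. The lowest library was control 2 for 3 genes, control 1 for 2 and control 3 for 1. Each of fosab, jun, junba, atf3 and dusp1 kept an unadjusted p under 0.05 whichever library was left out, with 0.0339 as the highest value. These fits share libraries with the fit in which the 5 genes passed, so they are no independent support. In each of them 1737 to 3519 genes passed that p in either direction. The share of all genes that kept it throughout was not computed. The smallest log2 fold change of any of the 6 genes with 1 library left out was 0.39, in junbb. Without control 2 and morphant 2, 2 of the 10 were called over all genes, when 2.56% of 19121 genes were called higher. The called genes were junba (log2 fold change 0.98, edgeR adjusted p = 0.0312) and dusp1 (1.4, adjusted p = 0.0286). The first principal component of the same data had set these 2 libraries apart from their groups. Leaving them out left 2 against 2, and 1359 genes were called in either direction, against 12 with all libraries. Over all alternatives the adjusted p of junba and dusp1 began at 0.00256 and 0.0151, the values with DESeq2, and ended at 0.508.

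Ratios of TPM between genes within a library do not depend on how libraries are scaled. They do depend on the length by which each count was divided, and for fosb that length differed between libraries. In control 1, 179 CPM of fosb went with 68.5 TPM, and in morphant 1, 177 CPM went with 111 TPM. For fosab the same libraries had 2210 CPM with 1740 TPM and 5400 CPM with 4790 TPM. The ratios that involve fosb carry this term, and ratios of counts were not tested. All 9 pairs among jun, junba, junbb and jund and among fosab, fosb and fosl2 were compared. Other Fos family genes were left out. Of those, fosl1a had a mean of 232 TPM over all libraries, above fosb and fosl2, and fosaa had 6.93 TPM. fosl1a was higher in every morphant (log2 fold change 0.51, edgeR unadjusted p = 0.0475, adjusted p = 0.289). The log2 ratio of fosab to fosb was 4.67, 4.17 and 4.12 in controls and 5.43, 4.7 and 5.16 in morphants, and that of fosab to fosl2 was 4.27, 4.2 and 4.57 in controls and 5.54, 4.62 and 5.1 in morphants. Both were higher in every morphant, although morphant 2 cleared the highest control by a small margin in each. The ratio of fosb to fosl2 overlapped (mean 0.0248 ± 0.426 in controls and -0.0116 ± 0.101 in morphants, SD, n = 3).

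In the Jun family, the 3 inducible members stood higher against jund in morphants. The log2 ratio of jun to jund was 4.78, 3.82 and 4.73 in controls and 5.48, 5.49 and 5.75 in morphants, a mean difference of 1.13. The ratios of junba and junbb to jund were higher by 0.996 and 0.688, and in every morphant than in every control, although for junbb the highest control was 7.05 and the lowest morphant 7.1. jun also stood higher against junbb, with mean log2 ratios of -2.2 ± 0.203 in controls and -1.76 ± 0.177 in morphants (SD, n = 3), but the highest control, -1.96, and the lowest morphant, -1.95, were nearly equal, while jun to junba and junba to junbb overlapped. In all, 6 of the 9 pairs separated the groups. The pairs share genes and are not independent, since 3 of them are set against jund, at 9.36 to 15 CPM, and both Fos pairs hold fosab. They draw on the same values as the comparison of single genes, and the share among pairs of other genes was not computed. Each of those had an exact permutation p = 0.1, the smallest possible with 3 against 3, and the smallest Benjamini-Hochberg adjusted value over the 9 pairs was 0.15.

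**Figure D3:**
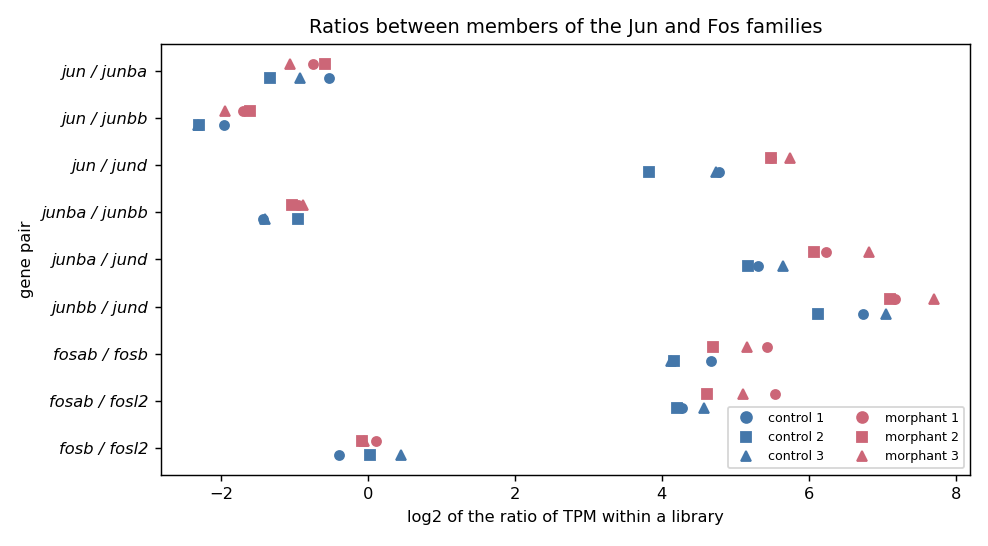
Log2 ratio of TPM within a library for the 9 pairs among jun, junba, junbb and jund or among fosab, fosb and fosl2. Each point is a library, with colours for the groups and shapes for the replicate numbers. The morphant points lie to the right of all control points for jun to junbb, jun, junba and junbb to jund, and fosab to fosb and to fosl2.

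The make-up of each set of genes differed between the groups by a few percentage points, with fosl1a and fosaa left out of the Fos set. fosab accounted for 90.9 ± 0.778% of the summed TPM of fosab, fosb and fosl2 in controls and 94.3 ± 1.56% in morphants (SD, n = 3). Among the 4 Jun genes, junbb remained the largest part, at 60.6 ± 2.66% in controls and 54.9 ± 0.414% in morphants, and was lower in all 3 morphants. jun held 13.3 ± 2.09 and 16.3 ± 1.86%, junba 25.4 ± 3.77 and 28.4 ± 1.62%, and jund 0.625 ± 0.182 and 0.348 ± 0.0715%. The shares of jun and junba overlapped between the groups. The summed TPM of the Jun genes was 3570 ± 397 in controls and 5780 ± 657 in morphants, and that of fosab, fosb and fosl2 was 2630 ± 662 and 4370 ± 563.

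The genes outside these 10 whose profile over the 6 libraries was nearest were sought for the 3 members of highest TPM, among 6528 genes of at least 20 CPM. Nearness was the root mean square difference of centred log2 CPM. For fosab they were sytl4 (0.0818), entpd1 (0.088) and gypc (0.0897), with junba, itself one of the 10, at 0.1. For junba they were tpst1 (0.0648), myca (0.0882), a zebrafish copy of the MYC oncogene, and klf7b (0.0926). For junbb they were timm22 (0.0623), mrps24 (0.0629) and tmem192 (0.0688). These are listed as a description, with no test.

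None of the related lists of genes had a member called over all genes by edgeR. Their counts at an unadjusted p under 0.05 stand against 7.58% of all genes higher and 9.46% lower. Of 26 other bZIP factors that can pair with AP-1 proteins or bind like sites, 7 were higher and 0 lower at an unadjusted p under 0.05, and the median log2 fold change was 0.04. atf5b, a relative of Atf4, read 14.5 ± 4.87 CPM in controls and 53.8 ± 2.17 CPM in morphants (SD, n = 3; log2 fold change 1.89, edgeR adjusted p = 0.0693). batf3, a partner of Jun proteins in mammalian immune cells, read 2.05 ± 0.874 and 6.45 ± 1.34 CPM. batf2, whose estimated counts were not all whole, read 51.7 ± 21.5 and 98.2 ± 19.5 CPM. In each of these genes the groups did not overlap.

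Of 46 other immediate early and early response genes, 11 were higher and 2 lower at an unadjusted p under 0.05, with a median of 0.28 and 33 values above 0. gadd45aa, a growth arrest gene induced by DNA damage in mammals, read 6.15, 3.74 and 5.43 CPM in controls and 60.5, 25.4 and 39.2 CPM in morphants (log2 fold change 3.03, SE 0.38, edgeR adjusted p = 0.0618). Its copy gadd45ab read 109 ± 11.4 and 205 ± 32.5 CPM. The cytokine feedback genes socs3a and socs3b read 636 ± 166 and 513 ± 60.9 CPM in controls and 1300 ± 216 and 933 ± 109 CPM in morphants. myca, which is also near junba in profile, read 24.3 ± 2.33 and 45.2 ± 11.0 CPM. These 5 had the smallest p-values among the genes of the list whose groups did not overlap.

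Of 39 MAP kinase, Srf, Elk and related genes, which act upstream of AP-1, 2 were higher and 7 lower at an unadjusted p under 0.05 and 30 passed in neither direction, with a median of -0.28. The p38 kinase genes mapk13 and mapk14b read 31.1 ± 14.8 and 30.5 ± 11.0 CPM in controls and 11.8 ± 1.92 and 10.3 ± 3.35 CPM in morphants. Among the other p38 genes, mapk14a was higher in every morphant (log2 fold change 0.35, edgeR unadjusted p = 0.0569). mapk11 (0.41), mapk12a (0.97) and mapk12b (0.11) also had values above 0, with groups that overlapped. srfa, a serum response factor gene, read 25.9 ± 1.34 and 15.1 ± 3.6 CPM. The higher genes were elk3, an Ets partner of serum response factor, at 280 ± 10.6 and 459 ± 36.3 CPM, and the kinase gene rps6ka3a, at 107 ± 10.2 and 168 ± 7.62 CPM. After the correction for gene length the list's median was -0.16, and the log2 fold change of srfa was -0.36 in place of -0.78.

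**Figure D4:**
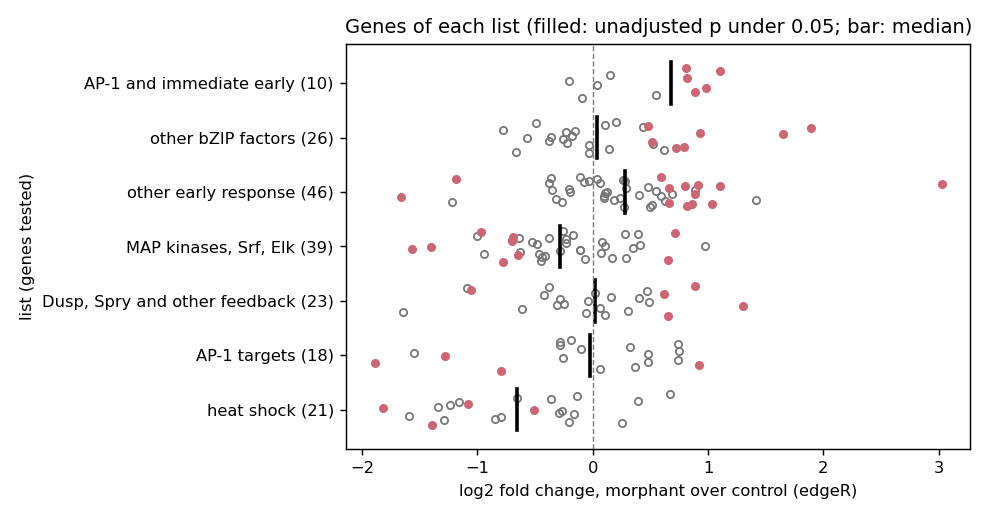
Log2 fold change, morphant over control, of each tested gene of the AP-1 and immediate early genes and of the 6 related lists, with the number tested in brackets. Filled points have an unadjusted edgeR p under 0.05, open points do not, and black bars are medians, which run from -0.66 for heat shock genes to 0.68 for the AP-1 and immediate early genes.

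Besides dusp1, 23 genes of a list of feedback inhibitors of MAP kinase signalling were tested. Of these, 4 were higher and 1 lower at an unadjusted p under 0.05, with a median of 0.02. The list also held etv4, etv5a and etv5b, Ets transcription factor genes that do not encode inhibitors, and none of them passed that p. dusp5, a phosphatase for nuclear Erk, read 716 ± 179 CPM in controls and 1100 ± 40.3 CPM in morphants (SD, n = 3). spry4 read 117 ± 15.1 and 184 ± 18.6 CPM, and il17rd, a receptor-like inhibitor of Fgf signalling, 7.96 ± 1.51 and 19.6 ± 3.83 CPM. LOC566587, listed by RefSeq under the synonym errfi1b, an inhibitor of the Egf receptor, read 119 ± 10.1 and 221 ± 33.6 CPM. dusp16, a phosphatase of the Jnk and p38 kinases, read 23.8 ± 3.7 and 11.4 ± 2.26 CPM.

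Of 18 genes often named as AP-1 targets, 1 was higher and 3 lower at an unadjusted p under 0.05, near the shares of all genes, 7.58% and 9.46%, and the median was -0.02. timp2a, an inhibitor of matrix proteases, read 60.6 ± 17.2 CPM in controls and 115 ± 18.2 CPM in morphants (SD, n = 3), and vim, the intermediate filament gene vimentin, read 43.0 ± 7.36 and 24.7 ± 4.91 CPM. Heat shock genes, which respond to protein damage and to cell handling, had 0 higher and 4 lower of 21, a median of -0.66 and 18 values below 0. hsp90ab1 read 3590 ± 99.3 and 2520 ± 142 CPM, and hsp90aa1.2, whose counts were not all whole, 313 ± 112 and 88.5 ± 42.8 CPM.

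Markers of several cell types differed between the same libraries. The 17 endothelial markers all had values above 0, with a median log2 fold change of 0.57, and their summed level ranged from 4300 to 6970 CPM in controls and from 8090 to 9680 CPM in morphants. Macrophage markers overlapped, at 458 to 1080 CPM in controls and 547 to 1580 CPM in morphants, as did neutrophil markers, at 3660 to 9910 and 3450 to 13100 CPM, with medians over 7 tested genes each of 0.39 and 0.04. Haemogenic and stem cell markers (10 tested, median -0.35) summed to 1600 to 2040 CPM in controls and 1370 to 1970 CPM in morphants. The largest part of that sum in every library was cebpa, at 634 ± 161 and 653 ± 210 CPM (SD, n = 3). cebpa, spi1b and ptprc of this list are also read in myeloid cells or other leukocytes. Of the 10, 6 did not overlap between the groups and had an unadjusted edgeR p under 0.05. Of these 6, runx1 (log2 fold change -1.25), gfi1aa (-1.0), myb (-0.67) and tal1 (-0.48) were lower in morphants, and gfi1ab (1.47) and lmo2 (0.64) were higher. Over all genes, 12.4% did not overlap in the higher direction and 11.9% in the lower, and 7.58% and 9.46% had such a p. Lower medians were found for erythroid (13 tested, -1.85), skeletal muscle (19, -1.71), epidermal (12, -1.33), mesenchymal and notochord (10, -1.13) and neural markers (11, -0.92). Summed skeletal muscle markers were 45400, 10300 and 65900 CPM in controls 1 to 3 and 9530, 18600 and 8760 CPM in morphants 1 to 3. Erythroid markers summed to 1680 to 6280 CPM in controls and 509 to 1620 CPM in morphants, epidermal markers to 5660 to 7630 and 3510 to 4250 CPM, mesenchymal and notochord markers to 2670 to 6720 and 207 to 1450 CPM, and neural markers to 241 to 300 and 111 to 253 CPM. 0 of the markers in the table had a count of 0 in all libraries. The part of these marker differences in the values of the AP-1 genes was not tested. Without control 2 and morphant 2 the medians were 0.33 for endothelial, 1.05 for macrophage, 0.97 for neutrophil, -0.13 for haemogenic and stem cell, -2.24 for erythroid, -2.63 for skeletal muscle, -0.58 for epidermal, -1.81 for mesenchymal and notochord and -1.28 for neural markers.

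The RefSeq table of assembly GRCz12tu lists all 10 genes; it is not the build of the files and was used here for the order of genes alone. fosab lies next to batf and atf3 next to batf3, so a pair of AP-1 genes have a Batf gene as neighbour. Of 16 protein-coding neighbours tested, 5 had an unadjusted p under 0.05, 2 higher and 3 lower, against 7.58% and 9.46% of all genes. pex3 and batf3, on either side of atf3, were higher (log2 fold changes 0.58 and 1.65), and capn12 and si:ch211-160d20.3 beside fosb (-1.84 and -0.8) and mocs1 beside fosl2 (-1.17) were lower. Other genes overlap 4 of the 10 in that assembly, among them si:ch211-153j24.3 at fosab, which had a mean of 1.28 CPM in controls and 0.304 CPM in morphants. No source used here gives the strand setting of the counting, so reads of such overlaps may have been counted for either gene, and the duplicated copies junba and junbb could share reads; the deposited counts of all 10 genes were whole in every library.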

How the data were processed

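RNA-seq of 3 control and 3 dnmt3ba morphant samples was analysed; the design text calls them biological replicates. The submitters' processing notes list DESeq2 1.30.1, HTSeq 0.12.4, HISAT2 2.2.1, BS-Seeker2 2.1.8 and the build GRCz11, without roles; no source used here gives the annotation or strand setting. For each gene and library the authors deposited an estimated count, a TPM and an FPKM (per the file headers). Of the deposited estimated counts, 13.5 to 15.1% per library were not whole. The methylation table of 7550 regions has no gene names and was not used here.

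Estimated counts were rounded. Genes were kept by filterByExpr (18846, all 10 members included), scaled by TMM (factors 0.932 to 1.11) and tested with the edgeR 4.0.16 quasi-likelihood F-test across all genes, with group as its single term (R 4.3.3), Benjamini-Hochberg adjustment and a threshold of 0.05. SEs were derived from F, and 95% intervals from the moderated degrees of freedom. CPM are TMM-normalised. Pair ratios used deposited TPM and exact permutation tests. The test was also run on simulated counts whose planted changes were larger than those of the 10 genes. That run does not bear on changes of their size.

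Members and lists were chosen with earlier results of these data known. Named from each list were members with an unadjusted p under 0.05 and no overlap between groups, up to 5 by p; some genes that the rule names are not reported here. Alternatives were limma-voom (limma 3.58.1), DESeq2 1.42.0, upper-quartile or RLE scaling, no filter, at least 5 CPM in 3 libraries, a replicate block, a length trend (loess, span 0.5) as offset, leaving out each library, and leaving out control 2 and morphant 2. Among the alternatives, those added after seeing the data were TPM and FPKM for the overlap of groups. Control 2 and morphant 2 were the libraries that the first principal component of the same data set apart. The pair ratios and their permutation tests were not among the planned results. P-values and intervals measure the spread between these samples alone.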

Additional observations from a re-analysis of the deposited data

How the results depend on the processing

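The number of the 10 genes called over all genes was 0 under every alternative except 2: it was 5 with DESeq2 and 2 without control 2 and morphant 2. The count higher at an unadjusted p under 0.05, 5 in the report, ran from 5 to 7 over the 15 alternatives, and the median log2 fold change from 0.56 to 0.81. The background moved too: 3211 of 18846 genes passed that p in either direction in the report. That number was 3718 with DESeq2, 4896 of 19121 without control 2 and morphant 2, and 1737 of 19503 without morphant 1. Of 150 values for single genes under the alternatives, 136 kept their direction and their side of the threshold, 7 gained a call, and 7 changed sign, all in fosl2, jund or egr1. The log2 fold change of fosl2 was 0.0 under the stricter filter, -0.08 without control 2 and morphant 2, and between -0.16 and 0.16 with 1 library left out. That of egr1 was -0.01 after the length correction and between -0.09 and 0.32 with 1 library left out, and that of jund was between -0.26 and 0.07 with 1 library left out. The cause was not tested. The 6 genes with separate groups were also separate in TPM and in FPKM. In morphants fosab took 34.8% of the members' TPM. TPM and FPKM are proportional within a library, so the share of fosab in FPKM, also 34.8%, is the same by construction. Same-numbered control and morphant libraries did not deviate together (correlations across genes 0.0338, -0.0944 and -0.159), and with a replicate block 5 genes were higher at an unadjusted p under 0.05, 0 were called, and the median was 0.69. Over all genes, 12 were called in the report, 1226 with DESeq2, 1359 without control 2 and morphant 2, 37 with no filter, 29 after the length correction, 0 with the block, and 0 to 77 with 1 library left out. The lowest count of any of the 10 genes in a library was 227, and the number of libraries limits precision, since 3 against 3 cannot give an exact p under 0.1.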

Other observations

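The wider Egr and Nr4a families, immediate early transcription factors like egr1, were compared after their values had been seen. Of 8 such genes tested (egr1, egr2a, egr2b, egr3, egr4, nr4a1, nr4a2b and nr4a3), 0 had an unadjusted edgeR p under 0.05, and the groups overlapped in all 8. Over all genes, 7.58% were higher and 9.46% lower at that p, and 12.4% and 11.9% did not overlap. With only 8 genes, 0 is near these shares. Control 1 was the lowest of the 6 libraries for 6 of the 8 and control 2 the highest for 5. egr3 read 32.2, 195 and 54.5 CPM in controls 1 to 3 and 120, 48.8 and 99.3 CPM in morphants 1 to 3. nr4a1 read 295, 1190 and 508 CPM in controls and 703, 754 and 894 CPM in morphants. For fosab and junba control 1 was likewise the lowest library, but control 2 lay below every morphant, at 2560 and 822 CPM.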
